A study of Mus musculus with 2 samples.

Results

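The complement and lipid-associated macrophage genes described here are 10 genes, taken by symbol from the 34097 genes listed in both libraries: C1qa, C1qb, C1qc, C3, Apoe, Apoc1, Trem2, Gpnmb, Lpl and Fabp5. Single-cell RNA was counted with 10x Genomics chemistry as unique molecular identifiers (UMIs), 1 per captured molecule, in 2 mouse tumours of LLC, the Lewis lung carcinoma line. A control tumour gave 1 library, and a tumour with a short hairpin RNA (shRNA) against Gfpt2 gave the other, the knockdown library. The series looks at the immune cells of the tumour and at communication between cells under this knockdown. Mouse strain, age, sex, the cells that carried the hairpin and any pooling of tumours are not given in the sources used here, and nothing shows how a repeat tumour would vary.

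Macrophages take up dying cells and lipids and shape the immune milieu of a tumour. C1q, the recognition molecule of the classical complement pathway, is assembled from chains encoded by C1qa, C1qb and C1qc, and C3 is the protein on which all complement pathways converge. Apoe and Apoc1 encode apolipoproteins, Trem2 a receptor for lipids that signals through Tyrobp, Gpnmb a glycoprotein of lysosomes and the cell surface, Lpl the lipase that frees fatty acids from lipoproteins, and Fabp5 a carrier of fatty acids inside the cell. Together they are known as marks of lipid-handling macrophages in tumours, fat tissue, arteries and brain.

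Cells were placed in classes by the counts of other genes, never by the 10 genes themselves. Macrophages had at least 20 Lyz2 UMIs per 10000, at least 2 UMIs of Csf1r plus Cd68, and at most 2 of Hmga2, Tnfrsf12a and Igf2bp2. T cells had at least 2 UMIs of Cd3d, Cd3e and Cd3g. Tumour-like cells had no Ptprc UMI, under 5 Lyz2 UMIs per 10000 and at least 5000 UMIs in all. This gave 2752 control and 2161 knockdown macrophages, 786 and 676 T cells, and 4986 and 5211 tumour-like cells, of 10662 and 11450 kept cells. Levels are UMIs of a gene per 1000000 UMIs of the same cells and library (CPM), with no scaling by gene length. Since each group is 1 library, no test was possible, and every interval (95%) covers counting error only. A gene is called here when it differed at least 1.5-fold and had at least 100 UMIs in 1 of the compared sets.

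The kept cells held 138972698 control and 118549975 knockdown UMIs, and the libraries shared 37 cell barcodes. The median macrophage had 6193.5 control and 5055 knockdown UMIs. Gfpt2 itself was low over all kept cells: 244 control UMIs (1.76 CPM) and 68 knockdown UMIs (0.574 CPM), with a log2 ratio of -1.61 (-2.02 to -1.22). The 10 macrophage markers summed to 16101 and 16784 CPM in the macrophage gate, against 1220 and 1508 in the T cell gate and 104 and 123 in the tumour-like gate. The tumour-like cells carried Hmga2 at 220 and 218 CPM, whereas the epithelial markers Krt8 (9 and 8 UMIs), Krt18 (1 and 0) and Epcam (4 and 8) were close to 0. Another keratin, Krt16, had at least 2 UMIs in 173 control and 50 knockdown tumour-like cells. Their fibroblast markers summed to 2503 and 2806 CPM, so this gate is a rule on counts rather than an epithelial class.

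Macrophages held 13.2% of all control and 9.91% of all knockdown UMIs of kept cells, and tumour-like cells 74.6% and 73.9%. In the control library macrophages held 83.9% of the C1qa UMIs of all kept cells, 84.8% of Apoe, 83.4% of Trem2, 84.5% of Lpl and 84.3% of Apoc1. In the knockdown library, where macrophages made up 18.9% of kept cells rather than 25.8%, these shares were 74.6%, 74.9%, 75.9%, 74.2% and 63.6%. C3 was divided, with 41.5% and 30.2% of its UMIs in macrophages and 44.8% and 52.3% in tumour-like cells. Tumour-like cells held 66.9% and 71.9% of the Gpnmb UMIs, below their share of all UMIs, and 79.0% and 80.5% of the Fabp5 UMIs, somewhat above it. Part of the remainder lay in cells in none of the 3 gates (20.4% of control and 30.1% of knockdown kept cells), which held 13.2% and 21.7% of the C1qa UMIs.

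**Figure D1:**
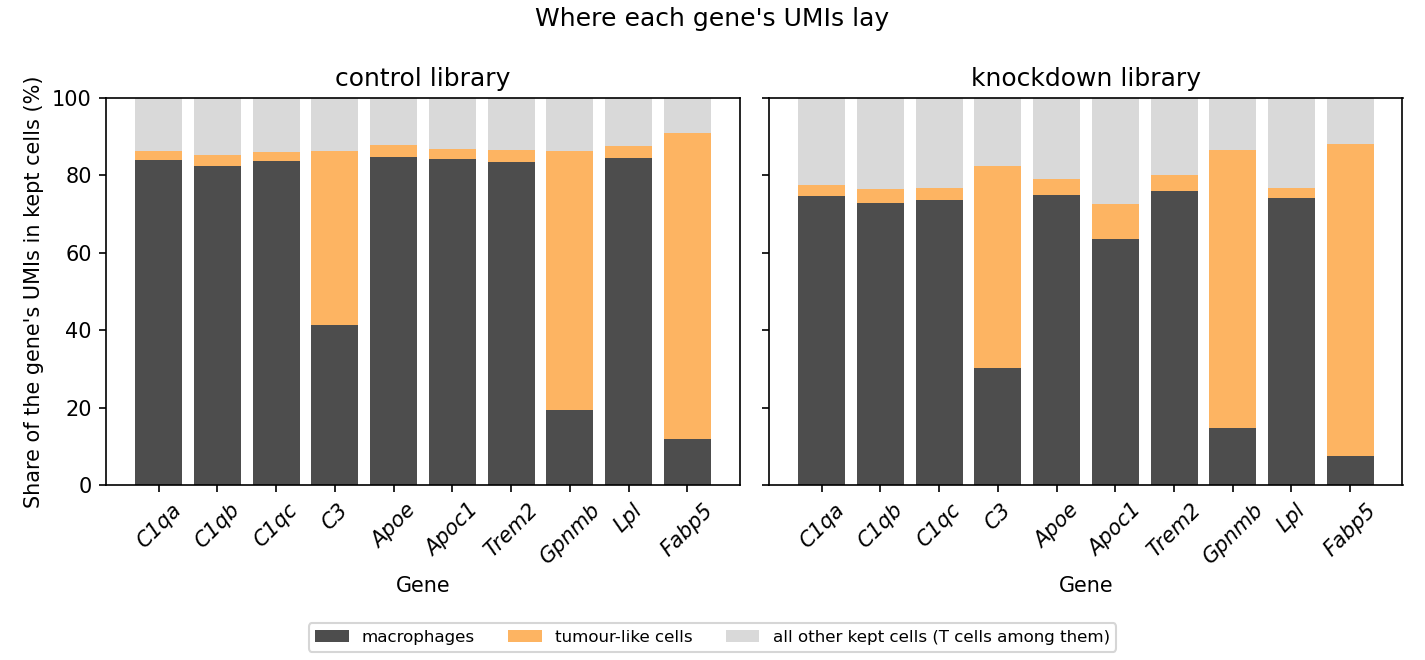
Share of each gene's UMIs over all kept cells (vertical axis, percent) that lay in macrophages, in tumour-like cells and in all other kept cells, for the control library (left) and the knockdown library (right). C3, Gpnmb and Fabp5 had larger shares in tumour-like cells (C3 44.8% and 52.3%) than in macrophages (C3 41.5% and 30.2%), while the other 7 genes lay mostly in macrophages. Tumour-like cells held 74.6% and 73.9% of all UMIs.

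Of the 9 genes with enough UMIs, all 9 were called higher in macrophages than in T cells in both libraries, where 19.5% (control) and 18.6% (knockdown) of all genes were called higher. Against tumour-like cells 8 of 9 were called higher in each library, beside 23.3% and 22.2% of all genes. Fabp5 was the exception. Against T cells, Lpl and C3 in both libraries and Gpnmb in the knockdown library reached 100 UMIs in macrophages alone. So did Lpl against tumour-like cells in both libraries. These genes thus entered the counts only through the class where they were high. All 10 are known macrophage genes, so their place in macrophages was part of why they belong together.

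In macrophages C1qa stood at 9726 CPM (control) and 10489 CPM (knockdown), C1qb at 7824 and 8494 CPM, and C1qc at 4719 and 4767 CPM; values below follow this order of the libraries. The knockdown values were thus slightly above the control values for C1qa and C1qb, and within counting error for C1qc. The log2 ratios, knockdown over control, were 0.11 (0.10 to 0.12), 0.12 (0.11 to 0.13) and 0.015 (-0.00082 to 0.030). None passed 1.5-fold. A C1qa UMI was present in 97.9% of control and 99.1% of knockdown macrophages, and in 98.1% and 99.3% after each cell was thinned to 3000 UMIs (2540 and 1839 cells deep enough). T cells, which are not known as a source of C1q, gave thinned shares of 32.0% and 35.4%, over the 359 and 297 of them that were deep enough (427 and 379 were left out), and tumour-like cells 13.9% and 16.0%, against 37.0%, 36.7%, 59.9% and 56.3% unthinned.

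The levels of C1qa ran in the same order in both libraries: macrophages, then T cells at 660 and 897 CPM, then tumour-like cells at 50.3 and 57.0 CPM, each step far wider than the counting intervals. Without the T cells that had at least 20 Lyz2 UMIs per 10000 (3.8% of control and 8.4% of knockdown T cells), C1qa in T cells was at 239 and 223 CPM, with the order of the libraries turned. In the small dendritic gate (57 and 52 cells) 1 cell held 70.1% of the control and 27.5% of the knockdown C1qa UMIs, and in the natural killer (NK) gate (52 and 55 cells) 1 cell held 14.8% and 25.5%, so no level is given for either. For every 100 C1qa UMIs, macrophages had 80.4 and 81.0 C1qb UMIs, T cells 89.8 and 82.7, and tumour-like cells 90.3 and 98.2. For C1qc the same figures were 48.5 and 45.4, 49.2 and 47.7, and 47.8 and 47.2. C1qc thus kept close to its proportion to C1qa in the 3 gates, while C1qb was higher against C1qa in tumour-like cells than in macrophages of both libraries.

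**Figure D2:**
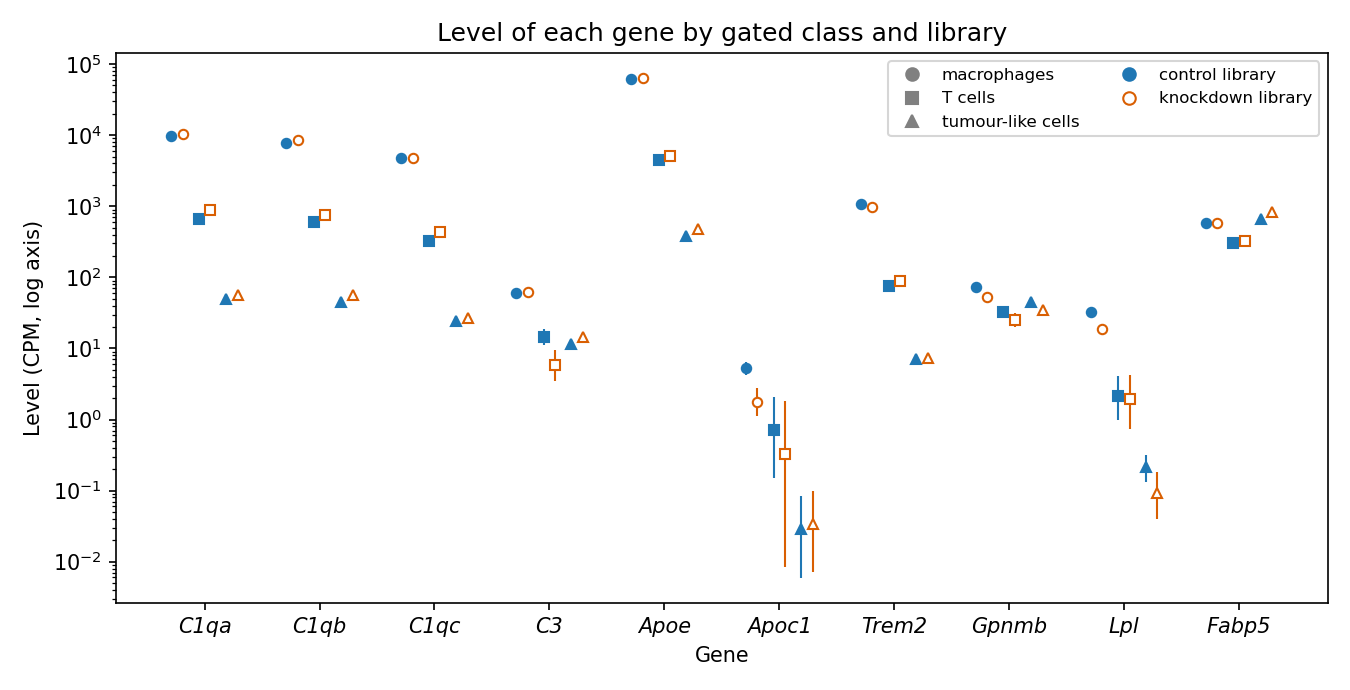
Level of the 10 genes (CPM, log axis) in macrophages (circles), T cells (squares) and tumour-like cells (triangles), control library filled and knockdown library open, with 95% Poisson intervals. C1qa, C1qb, C1qc, Apoe and Trem2 fell in steps from macrophages to T cells to tumour-like cells, while Fabp5 was highest in tumour-like cells (668 and 836 CPM).

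Across single macrophages the C1q chains also moved together. Pearson's r of log counts after thinning was 0.85 in control and 0.77 in knockdown macrophages between C1qa and C1qb, 0.83 and 0.73 between C1qa and C1qc, and 0.79 and 0.70 between C1qb and C1qc. Apoe was the next most alike, with r of 0.56 and 0.45 to C1qa. Among 3689 other genes compared, those most like the C1q sum were Itm2b (mean r 0.46), Ms4a7 (0.35), Ctss (0.35), Aif1 (0.31) and Lgmn (0.30). These correlations are over cells of 1 library each, which share a library and the depth they were thinned to.

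**Figure D3:**
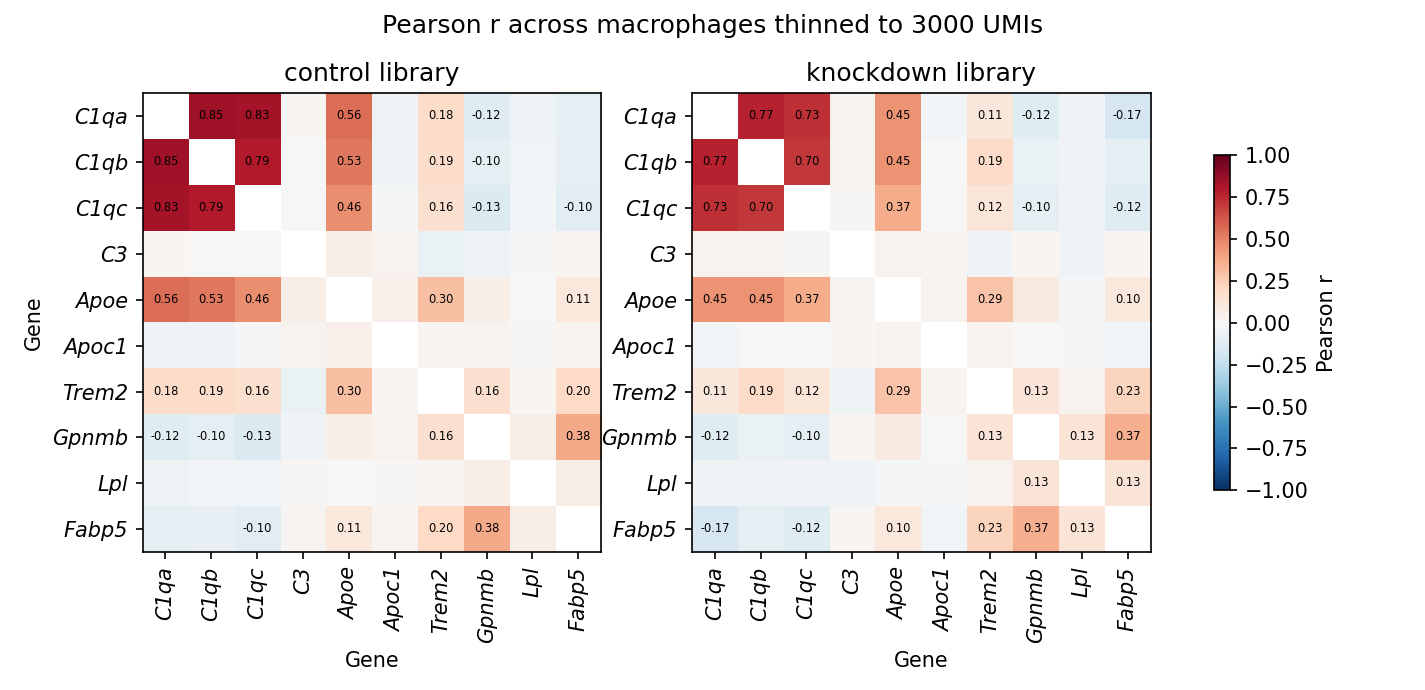
Pearson's r between the 10 genes across macrophages thinned to 3000 UMIs, control library (2540 cells, left) and knockdown library (1839 cells, right), with values of at least 0.1 in size printed. The C1q chains and Apoe form one block (C1qa with Apoe 0.56 and 0.45), and Gpnmb with Fabp5 another (0.38 and 0.37).

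The C1q genes stand next to each other on chromosome 4, in the order C1qb, C1qc, C1qa among RefSeq genes of GRCm38.p6, and neither neighbour of the group reached the level needed for a comparison (Ephb2 5 and 5 UMIs, Epha8 0 and 1). RefSeq start sites were matched for 6 of the 10 genes (C1qb, C1qc, C3, Apoe, Trem2 and Gpnmb). The 250 bases before the start are shown for C1qb and C1qc, which were alike from cell to cell, and for Gpnmb, which was not like them. The bases just after the start were found near the beginning of an annotated GENCODE transcript for C1qc, but not for C1qb or Gpnmb, so the start sites of these are less sure. Capitals mark the core letters bound by PU.1, a macrophage transcription factor (GAGGAA, or TTCCTC on the other strand), and the MAF half-site (TGCTGA, or TCAGCA).
C1qb, chr4:136886201-136886450, minus strand: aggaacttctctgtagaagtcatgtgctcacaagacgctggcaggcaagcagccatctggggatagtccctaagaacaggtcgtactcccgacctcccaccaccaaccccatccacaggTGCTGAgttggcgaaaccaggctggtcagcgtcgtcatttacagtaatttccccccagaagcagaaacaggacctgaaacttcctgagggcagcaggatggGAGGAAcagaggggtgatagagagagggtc
C1qc, chr4:136892915-136893164, minus strand: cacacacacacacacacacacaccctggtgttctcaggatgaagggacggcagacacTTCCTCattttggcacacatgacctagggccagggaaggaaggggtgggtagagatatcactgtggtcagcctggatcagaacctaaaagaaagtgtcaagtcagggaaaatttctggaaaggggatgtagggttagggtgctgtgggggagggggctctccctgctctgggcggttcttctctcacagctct
Gpnmb, chr6:49036268-49036517, plus strand: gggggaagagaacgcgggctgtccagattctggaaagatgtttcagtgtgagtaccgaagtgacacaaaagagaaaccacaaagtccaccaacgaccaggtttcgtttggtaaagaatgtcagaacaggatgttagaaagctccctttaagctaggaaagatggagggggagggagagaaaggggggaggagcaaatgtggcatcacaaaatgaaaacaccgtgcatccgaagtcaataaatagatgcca

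The PU.1 core letters were in a window of 4 of the 6 matched genes (C1qb, C1qc, Apoe and Trem2). Counted by window, as Apoe has 3, they were in 5 of 8, beside 23.3% of the 32851 mouse windows of this length. The MAF half-site was in 2 of 8 windows (C1qb and C3) and in 16.1% of all windows. The E-box CACGTG was in none of the 8 and in 6.02% of all windows, and the interferon-stimulated response element in none of the 8 and in 2.98%. The searches covered both strands, and the PU.1 and MAF letters do not overlap in the windows shown. Such a match is a description of letters and says nothing of binding.

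C3 had a smaller share of its UMIs in macrophages than the C1q chains. In macrophages it stood at 59.8 CPM (56.3 to 63.4) and 62.0 CPM (57.5 to 66.6), from 1096 and 728 UMIs, a log2 ratio of 0.052 (-0.085 to 0.19). The libraries were therefore not told apart in macrophages at this depth. A C3 UMI was found in 22.7% and 21.7% of macrophages, or 12.8% and 13.8% after thinning, against 3.1% and 1.0% of thinned T cells and 2.9% and 3.2% of thinned tumour-like cells. In tumour-like cells C3 stood at 11.4 CPM (10.8 to 12.1) and 14.4 CPM (13.6 to 15.2), a log2 ratio of 0.33 (0.22 to 0.45). Giving each cell the same weight brought this ratio to 0.15.

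Within tumour-like cells C3 followed the collagen genes. Cells with Col1a1, Col1a2 and Col3a1 of at least 20 per 10000 UMIs, called collagen-high (1511 control and 1824 knockdown cells), had 33.7 and 34.9 CPM of C3, against 4.51 and 6.20 CPM in collagen-low cells. That is 7.46-fold and 5.63-fold higher, where 13.7% and 9.43% of all genes were called higher and 7.98% and 7.95% lower. Of the 8 genes with enough UMIs, C3 and Fabp5 were called higher in collagen-high cells of the control library and Gpnmb lower, and C3 alone was called in the knockdown library. C3 was also concentrated in few cells. A limit of at least 5 C3 UMIs, chosen after the values were seen, took 68 control and 74 knockdown cells (1.36% and 1.42% of tumour-like cells), which held 54.9% and 54.3% of the C3 UMIs of the gate. Of these cells 77.9% and 75.7% were collagen-high, against 29.6% and 34.4% of the others. They had 4157 and 3031 CPM of Dcn, a proteoglycan of fibroblasts, against 992 and 1050 CPM in the other tumour-like cells. Of the collagen genes of the gate, Col1a1 and Col3a1 were higher in them too, whereas Col1a2 was lower, at 0 and 2.59 CPM against 4.86 and 9.93 CPM. Hmga2, one of the genes that keeps tumour cells out of the macrophage gate, was lower in them, at 55.6 and 99.96 CPM against 222 and 220.1 CPM.

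Of 37 complement components, receptors and regulators listed, 36 were found, 15 had at least 100 UMIs in macrophages of 1 library, and 0 were called in either direction, beside 1.5% of all 9449 genes called higher and 1.82% called lower. Their median log2 ratio was 0.034, against -0.0041 over all genes. C3ar1, the receptor of the C3a fragment, was at 316 and 324 CPM. C5ar1, the receptor of C5a, was at 217 and 255 CPM. Itgam, a chain of the receptor for cleaved C3, was at 179 and 157 CPM, and Cfp, which encodes properdin, the stabiliser of the alternative pathway, at 134 and 128 CPM. In tumour-like cells 2 of 17 complement genes were called higher and 1 lower, beside 2.33% and 0.736% of all genes. Named after their values were seen, these were Clu, an inhibitor of the terminal pathway (9.76 and 18.6 CPM), Cd93 (0.907 and 1.59 CPM), and C4b, a component of the classical pathway (17.5 and 6.38 CPM, a log2 ratio of -1.46).

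Macrophages had 60989 and 63631 CPM of Apoe, and it was found in 2751 of 2752 control macrophages and in each of the 2161 knockdown macrophages. Its log2 ratio was 0.061 (0.057 to 0.065). Apoe was lower in cycling macrophages (at least 3 UMIs of Mki67, Top2a, Birc5 and Ube2c), with 33481 CPM against 67939 CPM in other control macrophages and 41459 against 66167 CPM in the knockdown library. In the control library 4 of 9 genes were called lower in cycling macrophages (Apoe, Gpnmb, Fabp5 and Lpl), beside 5.27% of all genes, and in the knockdown library 1 of 9 (Apoe), beside 5.57%. Control Lpl reached the minimum only in the other macrophages (520 UMIs, against 86 in cycling ones). Cycling cells made up 14.0% of control and 7.4% of knockdown macrophages. Outside them the Apoe log2 ratio was -0.038 (-0.043 to -0.034), so its sign in macrophages depended on these cells.

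Outside macrophages Apoe was at 4521 and 5105 CPM in T cells, or 1564 and 1180 CPM without those of at least 20 Lyz2 UMIs per 10000, and the log2 ratio went from 0.18 to -0.41. It was at 385 and 483 CPM in tumour-like cells, a log2 ratio of 0.33, and whether these cells made this RNA was not tested. Per 100 C1qa UMIs there were 627 and 607 Apoe UMIs in macrophages, 685 and 569 in T cells, and 766 and 847 in tumour-like cells. Trem2 had 11.1 and 9.36 UMIs per 100 in macrophages, 11.5 and 9.75 in T cells and 14.2 and 12.7 in tumour-like cells. The figures for Fabp5 and Gpnmb differed far more between the gates: Fabp5 had 5.91 and 5.57 UMIs per 100 C1qa UMIs in macrophages and 1329 and 1466 in tumour-like cells, and Gpnmb 0.757 and 0.509 against 89.4 and 61.4.

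Apoc1 was scarce in macrophages, with 97 UMIs (5.29 CPM, 4.29 to 6.45) and 21 UMIs (1.79 CPM, 1.11 to 2.73). Its log2 ratio of -1.57 (-2.32 to -0.87) is not counted as a call because neither library reached 100 UMIs. Its neighbours on chromosome 7 in RefSeq order are Apoc4 and, past it, Apoc2 on one side and Apoe on the other. Apoc4, the only one of the apolipoprotein genes that is not a member and passed the minimum here, was called lower, with 224 and 64 UMIs and a log2 ratio of -1.17 (-1.59 to -0.76). Apoc2 had 26 and 5 UMIs.

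Macrophage Trem2 was at 1078 CPM (1063 to 1093) and 982 CPM (964 to 1000.2), and its log2 ratio was -0.13 (-0.17 to -0.10). T cells had 75.7 and 87.5 CPM, or 31.3 and 19.9 CPM without those of at least 20 Lyz2 UMIs per 10000 (log2 ratios of 0.21 and -0.65), and tumour-like cells 7.12 and 7.23 CPM. The second of these ratios rests on 121 and 53 UMIs and passes 1.5-fold and the minimum. A Trem2 UMI was seen in 95.2% of control and 92.0% of knockdown macrophages, or 89.8% and 87.9% after thinning, against 12.5% and 13.8% of thinned T cells and 2.2% and 2.3% of thinned tumour-like cells.

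Of 14 genes of Trem2 signalling and its family, 13 had enough UMIs in macrophages, 0 were called higher and 1 lower, beside 1.5% and 1.82% of all genes, with a median log2 ratio of 0.031. Tyrobp, the adaptor that carries the Trem2 signal, was at 2081 and 1990 CPM, and Inpp5d, a phosphatase that dampens it, at 189 and 192 CPM. Ms4a7 was at 945 and 1143 CPM, and Adam17, a protease that sheds Trem2, at 103 and 113 CPM. The gene called lower was Trem3, a related receptor, with 136 and 58 UMIs and a log2 ratio of -0.59.

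Gpnmb was lower in the knockdown library in macrophages and tumour-like cells, without passing 1.5-fold. In macrophages it was at 73.7 CPM (69.8 to 77.7) from 1351 UMIs and 53.4 CPM (49.3 to 57.7) from 627 UMIs, a log2 ratio of -0.47 (-0.60 to -0.33). In T cells it was at 32.4 and 25.3 CPM, with a log2 ratio of -0.36 (-0.78 to 0.057), an interval that covers 0. Without the T cells of at least 20 Lyz2 UMIs per 10000 it was at 25.6 and 14.6 CPM, from 99 and 39 UMIs (under the minimum for a call), and the ratio was -0.81. In tumour-like cells it was at 44.98 CPM (43.7 to 46.3) and 35.0 CPM (33.8 to 36.2), a log2 ratio of -0.36 (-0.43 to -0.30). Outside the cycling macrophages Gpnmb was at 83.3 and 53.6 CPM, a log2 ratio of -0.64 (-0.78 to -0.49), which passes 1.5-fold, beside 0.726% of all genes called lower. Among the cycling cells it was at 35.4 and 51.4 CPM.

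In tumour-like cells a small set of Krt16-positive cells (at least 2 UMIs of Krt16, a keratin of stressed epithelium) bore on Gpnmb. The 173 control cells of this set had 156 CPM of Gpnmb and the 50 knockdown cells 38.5 CPM, from 712 and 43 UMIs, a log2 ratio of -2.02 (-2.50 to -1.58), beside 10.3% of all genes called lower. They held 10.2% of all control Gpnmb UMIs and 1.0% of those in the knockdown library. Without them the tumour-like levels were 39.9 and 34.9 CPM, a log2 ratio of -0.19 (-0.26 to -0.12). Collagen-high cells differed little between the libraries, at 32.2 and 32.6 CPM, and collagen-low cells more, at 48.9 and 35.9 CPM.

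Lpl was the only 1 of the 9 genes with enough UMIs that was called in macrophages, in the lower direction, beside 1.82% of all genes called lower and 3.32% in either direction. It was at 33.0 CPM (30.5 to 35.8) and 18.8 CPM (16.4 to 21.5), from 606 and 221 UMIs, and its log2 ratio was -0.81 (-1.04 to -0.59). The 28 control and 22 knockdown macrophages with the most Lpl held 34.3% and 34.8% of these UMIs. The interval treats UMIs as independent and leaves out this spread between cells. An Lpl UMI was seen in 11.7% (10.5 to 12.9) of control and 6.6% (5.6 to 7.8) of knockdown macrophages, and in 6.4% (5.5 to 7.4) and 4.7% (3.8 to 5.7) after thinning. In the other gates of the rule Lpl was close to 0, with 9 and 6 UMIs in T cells and 22 and 8 in tumour-like cells. Macrophages held 84.5% and 74.2% of the Lpl UMIs of all kept cells, T cells 1.26% and 2.01%, and tumour-like cells 3.07% and 2.68%. The rest lay in cells outside the 3 gates. The median log2 ratio of the 9 genes in macrophages was 0.022, against -0.0041 over all genes.

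Markers of other cell types differed between the macrophage gates of the libraries. The 6 monocyte markers summed to 212 and 111 CPM, with none at 0, and Chil3, the most different of them, had 1099 and 54 UMIs. Of the 4 adipocyte markers, Adipoq, Plin1 and Cidec had no UMI in macrophages of either library, and Fabp4 was at 11.0 and 11.4 CPM. The fibroblast list summed to 107 and 184 CPM and the T cell list to 25.8 and 53.2 CPM. The 5 alveolar macrophage markers summed to 8.29 and 3.40 CPM, with Car4 at 0 in both, the 4 endothelial markers to 15.1 and 30.7 CPM, and the 4 NK markers to 0.709 and 5.28 CPM. The part of these markers in the results was not tested.

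Genes that control Lpl after translation gave few values. Of 9 listed, 2 had enough UMIs, and 0 were called: Sel1l, which helps the lipase leave the endoplasmic reticulum, at 39.2 and 38.1 CPM, and Lmf1, its maturation factor, at 17.4 and 17.4 CPM. Of 30 genes of lipid uptake, efflux and lipoproteins, 20 had enough UMIs, 0 were called higher and 1 lower, namely Apoc4, beside the same shares of all genes (1.5% and 1.82%). Abca1, the exporter of cholesterol, was at 246 and 229 CPM, and Lrp1, a receptor of remnant lipoproteins, at 204 and 147 CPM. Msr1, a scavenger receptor, was at 137 and 112 CPM and Pltp, a phospholipid transfer protein, at 127 and 137 CPM.

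Of 28 other lipid-associated macrophage genes, 27 had enough UMIs, 0 were called higher and 2 lower, beside 1.5% and 1.82% of all genes, with a median log2 ratio of -0.054. Spp1, the secreted protein osteopontin, was at 1299 and 709 CPM, a log2 ratio of -0.87. Mmp12, an elastase of macrophages, was at 191 and 112 CPM, a log2 ratio of -0.77. The lectin Lgals3 (2137 and 1856 CPM) and the lysosomal proteases Ctsb (2071 and 2160 CPM), Ctsd (1982 and 1836 CPM) and Ctsz (1805 and 1789 CPM) were not called. None of the 12 transcription factors listed for these genes was called: Cebpb was at 631 and 577 CPM, Spi1, which encodes PU.1, at 476 and 489 CPM, and Maf at 207 and 208 CPM.

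**Figure D4:**
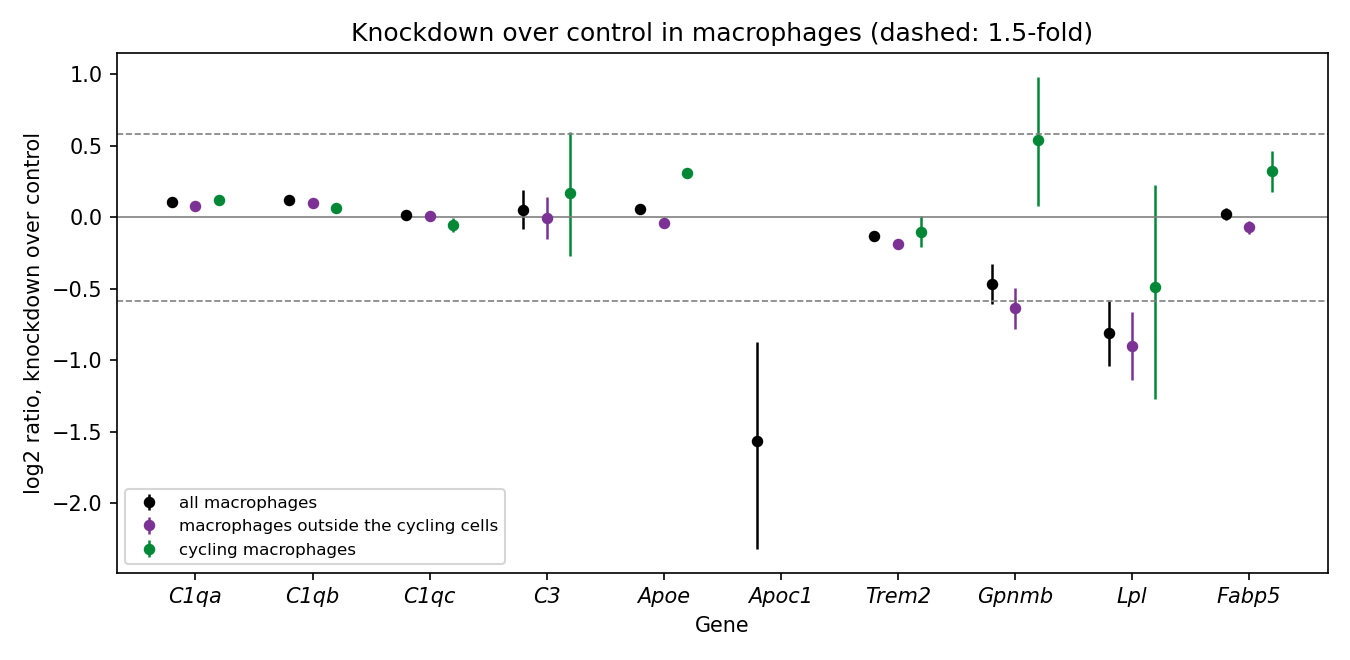
Log2 ratio of knockdown over control (vertical axis) for the 10 genes in all macrophages (black), in macrophages outside the cycling cells (purple) and in cycling macrophages (green), with 95% conditional intervals and dashed lines at 1.5-fold. Lpl lay past the lower line in all macrophages (-0.81) and outside the cycling cells (-0.90), where Gpnmb did too (-0.64), and Apoc1 (-1.57), with under 100 UMIs, is shown for all macrophages only and is not counted.

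Fabp5 was not told apart between the libraries in macrophages as a whole, at 575 CPM (564 to 586) and 584 CPM (570.3 to 598), a log2 ratio of 0.022 (-0.022 to 0.066). A Fabp5 UMI was seen in 60.6% and 53.3% of macrophages, but in 45.6% and 46.0% at equal depth, where T cells had 34.5% and 36.4%.

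Tumour-like cells had more Fabp5 than macrophages, at 668 CPM (663 to 673) and 836 CPM (830.0 to 842), a log2 ratio of 0.32 (0.31 to 0.34). Collagen-high cells had nearly equal levels in the libraries, at 964 and 966 CPM, and the difference lay in collagen-low cells, at 576 and 784 CPM, a log2 ratio of 0.44 (0.43 to 0.46). No member was called in tumour-like cells (0 of 8, beside 3.06% of all genes), and their median log2 ratio was 0.24, against 0.042 over all genes. Among the 8, C1qa was 193-fold and 184-fold lower here than in macrophages, Apoe 158-fold and 132-fold, and Trem2 151-fold and 136-fold. Whether the RNA of such genes came from the tumour-like cells themselves was not tested. Fabp4, the relative of Fabp5 best known from fat cells, was called higher there, at 29.8 and 84.6 CPM, and Spp1 and Mmp12 were called lower, at 44.3 and 20.1 CPM and 2.86 and 1.54 CPM. These 3 were named after their values were seen. In macrophages Fabp4 was the only 1 of 6 listed genes of the family with enough UMIs, and was not called.

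Macrophages of the knockdown library carried more interferon-induced RNA, with a median of 12.2 UMIs of Ifit1, Ifit2, Ifit3, Isg15 and Rsad2 per 10000 against 4.3 in the control library. Macrophages of both libraries were therefore cut at common quartiles of this count, which makes ranges and not cell types. Gpnmb went from 98.4 CPM in the lowest to 49.3 CPM in the highest bin of control macrophages, and from 110 to 34.2 CPM in knockdown macrophages. Lpl went from 40.7 to 23.3 CPM and from 29.5 to 10.6 CPM. Fabp5 went from 660.0 to 439 CPM and from 872 to 416 CPM, and Trem2 from 1191 to 917 CPM and from 1212 to 843 CPM. These 4 were chosen after their values were seen, and the Trem2 difference did not pass 1.5-fold in either library.

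The other genes did not share that order. C1qa was at 8951 CPM in the lowest and 10712 CPM in the highest bin of the control library, and at 9320 and 11232 CPM in the knockdown library. C3 was at 50.1 and 74.2 CPM, and at 45.4 and 61.6 CPM. Apoc1, with 36 and 8 UMIs in the lowest and highest control bin and 1 and 10 in the knockdown bins, was too scarce to order. Apoe was nearly alike in the lowest and highest bin, at 59048 and 58563 CPM in control macrophages, where the middle bins were higher at 63654 and 62199 CPM, and at 63939 and 62729 CPM in those of the other library. From the lowest to the highest bin, 3 of the 9 genes with enough UMIs were called lower in the control library (Gpnmb, Lpl and Fabp5), beside 4.56% of all genes, and 2 of 8 in the knockdown library (Gpnmb and Fabp5), beside 3.27%. Control Lpl reached the minimum only in the lowest bin (242 UMIs, against 71 in the highest).

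Within a bin the libraries could be compared at like interferon levels. The log2 ratio of Lpl, knockdown over control, was -0.46, -0.38, -0.72 and -1.13 from the lowest to the highest bin. The interval of the second covers 0 (-0.82 to 0.048), and the last rests on 71 and 42 UMIs, under the minimum for a call. For Gpnmb it was 0.17 (-0.07 to 0.40) in the lowest bin and -0.35, -0.40 and -0.53 in the other bins. For Fabp5 it was 0.40, 0.29, -0.0085 and -0.075. The smaller Gpnmb level of the knockdown library was therefore not seen in macrophages with the fewest interferon UMIs, and Fabp5 was higher there. In that bin cycling cells made up 18.5% of control and 4.8% of knockdown macrophages. Cycling control macrophages had less Gpnmb (35.4 against 83.3 CPM) and Fabp5 (364 against 628 CPM) than the others. In the knockdown library these levels were 51.4 against 53.6 CPM and 454 against 599 CPM. The part of this difference was not tested.

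**Figure D5:**
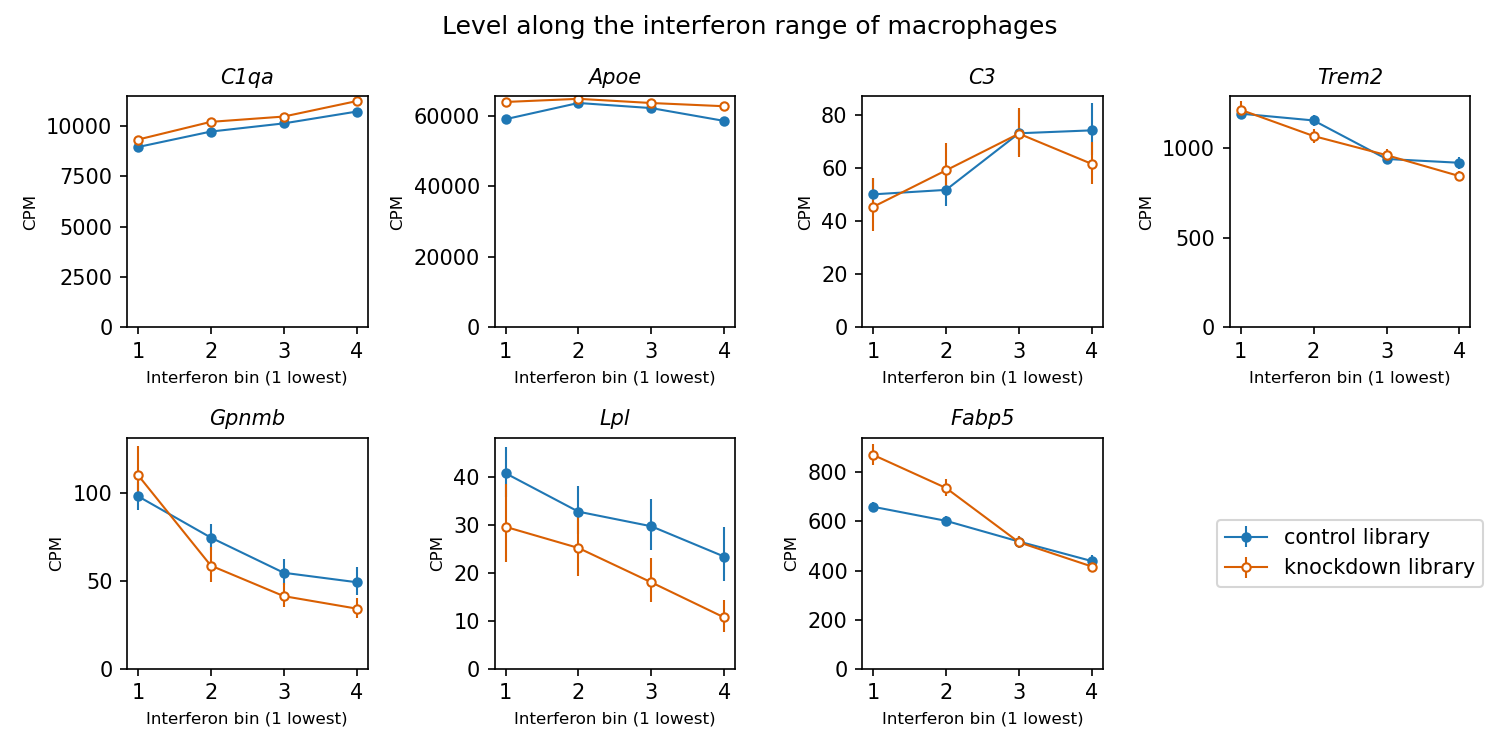
Level (CPM, vertical axes from 0) of 7 of the genes in macrophages by bin of interferon-induced UMIs, for the control (filled) and knockdown (open) library, with 95% Poisson intervals. Gpnmb, Lpl, Trem2 and Fabp5 are lower in the highest than in the lowest bin (Gpnmb 98.4 to 49.3 and 110 to 34.2 CPM), C1qa is higher, and Apoe is nearly alike at both ends.

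Gpnmb and Fabp5 were also the most alike of the lipid genes from cell to cell, with r of 0.38 in control and 0.37 in knockdown macrophages, against 0.30 and 0.29 between Apoe and Trem2 and -0.12 in both libraries between C1qa and Gpnmb. The other genes most like Gpnmb were Spp1 (mean r 0.33), Fth1 (0.27), Lgals3 (0.27), Ctsd (0.27) and Ftl1 (0.26). The 28 control and 22 knockdown macrophages with the most Gpnmb held 27.5% and 34.6% of its UMIs in the gate. A Gpnmb UMI was present in 16.5% (15.1 to 17.9) of control and 11.2% (9.9 to 12.6) of knockdown macrophages, or 10.6% (9.4 to 11.8) and 8.2% (7.0 to 9.6) after thinning. At the same depth 3.9% and 3.4% of T cells and 11.0% and 9.9% of tumour-like cells had one.

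In T cells 0 of 7 genes with enough UMIs were called, beside 3.15% of all genes, and their median log2 ratio was 0.21. That sign depended on which cells entered: without T cells that had at least 20 Lyz2 UMIs per 10000 the median was -0.23, and with no removal of doublets it was -0.050. Without those Lyz2 cells Trem2 passed 1.5-fold with enough UMIs. The levels of C1q, Apoe and Trem2 in this gate are therefore given as background only. C3 in T cells rested on 60 and 18 UMIs. In the small gates the counts were low: NK cells had 175 and 353 Apoe UMIs and no C3 or Apoc1 UMI, dendritic cells 455 and 429 Fabp5 UMIs, and the 13 and 14 endothelial cells 83 and 24 C1qa UMIs.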

How the data were processed

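Both libraries were deposited by the authors as raw UMI counts per gene and cell, with no normalisation. Cell Ranger is named as version 6.1.0 per the file headers and as 3.1.0 per the submitters' processing notes; genome build, annotation and later filters are not given in the sources used here. Cells with fewer than 200 genes (34 control, 19 knockdown) or more than 20% mitochondrial UMIs (164, 72) did not enter. The cells ranked highest by Scrublet score (scanpy 1.11.5) were taken out as doublets at 0.8% per 1000 cells, which took 1148 and 1322 cells. UMIs were summed per gate and library, with Python 3.11.15, numpy 2.4.6 and scipy 1.17.1. Intervals are exact: Poisson for CPM, conditional binomial for ratios, Clopper-Pearson for shares, all at 95%, and cover counting error only. The calculation of ratios was checked on simulated counts with known folds, which is no test of the reported ratios. Thinning drew 3000 UMIs per cell without replacement, leaving out shallower cells.

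The 10 genes and the lists were chosen with earlier results of these data known. Named are all 10 genes, list genes called in macrophages, up to 4 of the highest of each list, and the 5 most alike genes to C1q and Gpnmb, except where said. One listed complement gene, C5, is not listed under that symbol. RefSeq windows of GRCm38.p6 gave sequences and gene order. Alternatives covered doublets, filters, scaling (edgeR 4.0.16 for TMM), weighting, gates, fold and minimum. Some planned results, among them a split of macrophages with its alternatives, are not reported here.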

Additional observations from a re-analysis of the deposited data

Results flagged for a closer look

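Apoe, Gpnmb and Fabp5 were singled out because their log2 ratios, knockdown over control, had opposite signs in cycling macrophages and in the other macrophages, with counting intervals on opposite sides of 0. For Apoe the ratio was 0.31 (0.29 to 0.32) in cycling macrophages and -0.038 (-0.043 to -0.034) in the others. For Gpnmb it was 0.54 (0.078 to 0.98), from 131 and 62 UMIs, and -0.64 (-0.78 to -0.49). For Fabp5 it was 0.32 (0.18 to 0.47) and -0.070 (-0.12 to -0.023). Between the libraries, markers of other cell types differed in cycling macrophages: fibroblast markers summed to 95.7 and 250 CPM, T cell markers to 37.9 and 100.3 CPM, NK markers to 1.35 and 19.1 CPM and monocyte markers to 97.3 and 145 CPM. In the other macrophages these sums were 109.8 and 177, 22.8 and 47.8, 0.546 and 3.70, and 241 and 107 CPM. The part of these markers was not tested. Nor were the differences in ratio, since each group is 1 library.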

How the results depend on the processing

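In macrophages the median log2 ratio of the 9 genes with enough UMIs was 0.022 (-0.0041 over all genes). It was -0.019 with TMM and -0.023 with median-of-ratios scaling, which move all genes alike (medians over all genes of -0.045 and -0.049), and -0.038 with cycling cells left out (0.0073 over all genes). In T cells the median of 0.21 became -0.23 with cells of at least 20 Lyz2 UMIs per 10000 left out and -0.050 with no doublet removal. In tumour-like cells the median of 0.24 became 0.16 with every cell weighted equally. The count of the 10 genes called in macrophages was 1 (Lpl), beside 3.32% of all genes. It was 2, Lpl with Gpnmb, with every cell weighted equally (2.995% of all genes called), cells thinned to 3000 UMIs before gating (1.95%), cycling cells left out (1.97%) or a lower fold limit (13.5%). It was 2, Lpl with Apoc1, with no doublet removal (2.51%), a minimum of 20 UMIs (8.74%) or no minimum (24.4%, above the share of the 10 genes), and 0 at 2-fold (0.624%). Over 10 alternatives the log2 ratio in macrophages ran from -0.90 to -0.71 for Lpl, -0.76 to -0.42 for Gpnmb and -0.070 to 0.055 for Fabp5, which changed sign in 4, of which 2 are those scalings. It ran from 0.064 to 0.12 for C1qa, 0.074 to 0.14 for C1qb, -0.030 to 0.034 for C1qc and -0.038 to 0.076 for Apoe. Values beyond the counting interval were 6 of 10 for C1qa, 5 for C1qb, 5 for C1qc and 9 for Apoe. C1qc changed sign in 3, of which 2 are those scalings, and Apoe in 1. Of all genes, 142 were called higher and 172 lower; with cycling cells left out these were 110 and 64. Of all values for single genes under an alternative, 96 stayed within counting error of the main one and 52 moved beyond it. One alternative, removing doublets at 2 times the rate, was chosen after seeing the data. Scrublet's own threshold was not run, because it marked 1013 control cells and only 1 knockdown cell. No paired analysis was possible because each group is 1 library. Depth limits Apoc1, and Lpl outside macrophages, most.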
